A study of Homo sapiens with 4 samples.

Results

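The regions described here are the 40 kb bins of the short arm (8p) and the long arm (8q) of human chromosome 8. A bin was taken where it was 40 kb wide and held a value in both of the prostate cancer cell lines studied. Bins ending at or before 43800000 were assigned to 8p and bins starting at or after 46900000 to 8q, which left the centromere and its flanks out. All positions are in hg19 and counted from 1. The rule gave 3566 bins, 1087 in 8p and 2479 in 8q, of 71436 bins with a value in both lines. A further 4 bins of chromosome 8 lay between the limits and were not used. The rule uses width and position, not the size of the values.

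Lamin B1 was immunoprecipitated from formaldehyde-fixed, sonicated chromatin of LNCaP, a line of prostate adenocarcinoma grown in RPMI medium, and of VCaP, a line of bone metastatic prostate cancer grown in DMEM F12. Both lines were cultured with fetal bovine serum and received no other treatment named in the labels. From each line came 1 library of the immunoprecipitated DNA and 1 of input DNA without antibody, 4 in all. No library had a replicate, so no difference between lines or arms could be tested. All values below describe these libraries.

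Lamin B1 is an intermediate filament protein of the nuclear lamina, the mesh that lines the inner nuclear membrane. Chromatin that touches it forms lamina-associated domains, which are often long, poor in genes and transcribed at a low level. The arms of chromosome 8 are of interest in prostate cancer because loss of 8p and gain of 8q are among its common DNA changes. The long arm carries the growth regulator MYC. Genes were not placed on the bins here, because no gene annotation of hg19 was at hand. DNA copy number of the arms was not measured here.

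Each value is the log2 ratio of lamin B1 signal to input, as the labels describe it, called enrichment here, so 0 means equal scaled signal in both. Which input library entered each table was not tested here, and a difference in DNA copy number between the 2 libraries of a ratio would enter its values. Depth is unknown because the files hold no read counts. The spread of a single bin, estimated from bins 3 apart in the same library, was 0.15 log2 units in LNCaP, 0.22 in VCaP and 0.20 for the difference between the lines. Bins of one library are not replicates, and the SD given for an arm is the spread over its 5 Mb windows. Over all 71436 bins the median was 0.06 in LNCaP and 0.19 in VCaP, 0.13 higher in VCaP, and differences between lines are also given relative to that shift where it matters. A second column of the deposited data assigns each bin to an associated state (labelled AD) or to the other state (iAD) by a hidden Markov model.

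The short arm was more enriched for lamin B1 than the long arm in both lines, and the gap was wider in LNCaP. In LNCaP the median log2 enrichment of 8p was 0.37 (interquartile range 0.14 to 0.66; SD over 9 windows of 5 Mb, 0.21). The LNCaP median of 8q was -0.18 (interquartile range -0.37 to 0.11; SD over 20 windows, 0.17). The 8q minus 8p difference in LNCaP was -0.55, more than 2 times the SD over windows of either arm. In VCaP the median of 8p was 0.39 (interquartile range 0.06 to 0.64; SD over 9 windows, 0.20). The VCaP median of 8q was 0.16 (interquartile range -0.13 to 0.44; SD over 20 windows, 0.26). The 8q minus 8p difference in VCaP was -0.23, which is within 1 SD of the 8q windows and just above that of the 8p windows. The 2 lines thus had nearly the same median on 8p and different ones on 8q, as deposited. Relative to the genome median of its line, 8p stood at 0.31 in LNCaP and 0.19 in VCaP, and 8q at -0.24 and -0.037.

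**Figure D1:**
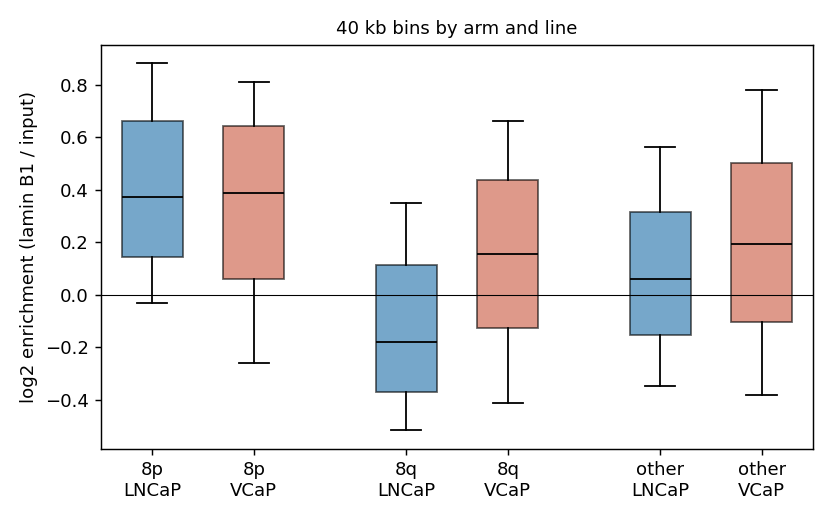
Log2 enrichment of lamin B1 over input (vertical axis) in 40 kb bins of 8p, 8q and all other chromosomes (other), for LNCaP and VCaP. Boxes span the 25th to 75th percentile with the median as a line, and whiskers reach the 10th and 90th percentiles. The 8q box of LNCaP, with a median of -0.18, is the only one whose median lies below 0.

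The windows of 5 Mb showed how far the arms overlapped. On 8p the LNCaP windows ran from -0.06 through a median of 0.37 to 0.71, and 8 of 9 were above 0. On 8q they ran from -0.36 through -0.17 to 0.31, and 5 of 20 were above 0. In LNCaP, 7 of the 9 windows of 8p lay above every window of 8q, and none of the 8q windows reached the 8p median. The VCaP windows of 8p ran from -0.10 through 0.40 to 0.61. Those of 8q ran from -0.30 through 0.12 to 0.88, with 15 of 20 above 0. In VCaP 3 windows of 8q lay above the 8p median, and 1 of them lay above every window of 8p. The arms were therefore almost separate in LNCaP and overlapped broadly in VCaP.

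The gap between the arms was of similar size at low and high bins. In LNCaP the 10th percentile of 8q differed from that of 8p by -0.48, and the 90th percentile differed by -0.53. In VCaP both the 10th and the 90th percentile differed by -0.15, less than the median did. The same direction was found within each state, which is not separate evidence, because the state labels are tied to the same libraries. LNCaP bins of the associated state had a median of 0.47 on 8p and 0.35 on 8q, and LNCaP bins of the other state had a median of -0.02 on 8p and -0.26 on 8q. In VCaP the medians of associated bins were 0.58 and 0.48, and those of the other bins were -0.03 and -0.07. The widest difference within a state was thus that of the LNCaP bins outside the associated state, which lay lower on 8q than on the other chromosomes (-0.10).

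The contrast was set beside that of the 17 other chromosomes with at least 100 bins on each side of their widest gap. In LNCaP the long arm minus short arm difference of chromosome 8, -0.55, was the largest in size of the 18. The others ran from -0.43, on chromosome 19, to 0.23, on chromosome 1, with a median of 0.02 and an SD of 0.16. In VCaP the difference of -0.23 ranked the third largest in size of 18. The others ran from -0.27, on chromosome 4, to 0.23, on chromosome 20, with an SD of 0.13. Chromosome 8 thus stood at the end of the range in LNCaP and inside it in VCaP.

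**Figure D2:**
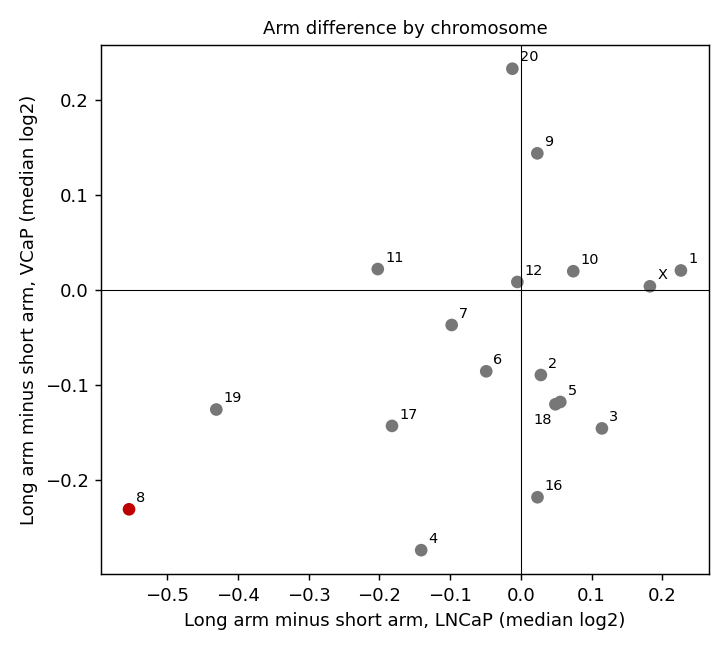
Median log2 enrichment of the long arm minus that of the short arm in LNCaP (horizontal axis) and VCaP (vertical axis) for the 18 chromosomes with both arms measured. Each point is 1 chromosome, and chromosome 8, in red, lies at -0.55 in LNCaP and -0.23 in VCaP.

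Ranked among 42 arms or undivided chromosomes, 8p had the third highest LNCaP median, after 16q (0.46) and 16p (0.44). The long arm 8q had the second lowest, at -0.18, with only chromosome 21 lower (-0.40). In VCaP 8p ranked 9 from the top and 8q ranked 30. The 2 arms of 1 chromosome thus lay at opposite ends of the LNCaP order and closer to its middle in VCaP.

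The deposited states restate the contrast as shares of each arm. Their labels tie them to the same lamin B1 libraries as the enrichment values, so they are not separate evidence. In LNCaP 857 of the 1087 bins of 8p (78.8%) were in the associated state, against 37.9% of all bins. On 8q it was 481 of 2479 bins (19.4%). In VCaP 671 bins of 8p (61.7%) and 1017 bins of 8q (41.0%) were associated, against 44.4% of all bins. The associated share of 8p differed from that of 8q by -59.4 percentage points in LNCaP (8q minus 8p), a gap exceeded only by that of chromosome 19 (-68.4). In VCaP the same difference was -20.7 points. The VCaP share of 8q lay near the background of all bins, whereas the LNCaP share of 8q lay below its background and both shares of 8p lay above theirs.

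Most of 8p that was associated in VCaP was also associated in LNCaP. Both lines were associated in 588 bins of 8p (54.1%, against 20.6% of all bins), LNCaP alone in 269 (24.7%, against 17.2%), VCaP alone in 83 (7.64%, against 23.8%) and neither line in 147 (13.5%, against 38.4%). So 87.6% of the VCaP-associated bins of 8p were associated in LNCaP, against 78.8% of all 8p bins. Of the LNCaP-associated bins, 68.6% were associated in VCaP, against 61.7% of all 8p bins. On 8q both lines were associated in 314 bins (12.7%), LNCaP alone in 167 (6.74%), VCaP alone in 703 (28.4%) and neither in 1295 (52.2%). There 30.9% of the VCaP-associated bins were associated in LNCaP, against 19.4% of all 8q bins. Of the LNCaP-associated bins, 65.3% were associated in VCaP, against 41.0% of all 8q bins. Which overlap share is larger follows from which line has more associated bins. That line was LNCaP on 8p (857 against 671) and VCaP on 8q (1017 against 481). Outside chromosome 8 the overlap shares were 46.1% and 53.8%, against 37.9% and 44.2% of all such bins. The 703 bins of 8q associated in VCaP alone had a median of -0.18 in LNCaP and 0.46 in VCaP.

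**Figure D3:**
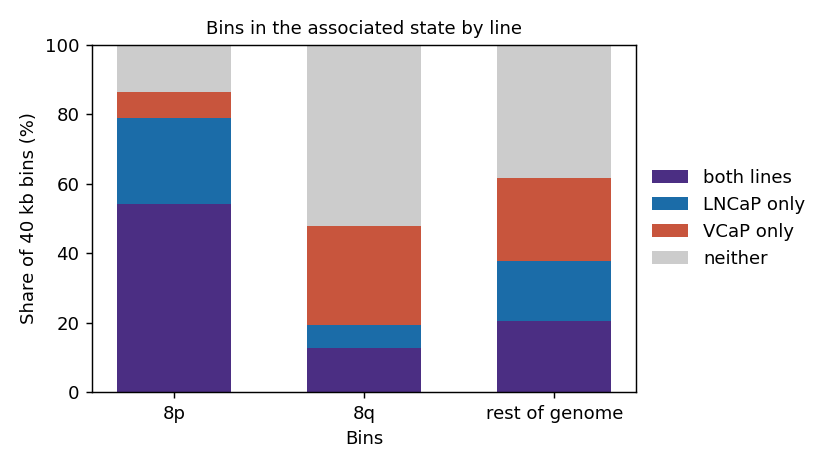
Share of 40 kb bins (vertical axis, percent) in the associated state of both lines, of LNCaP alone, of VCaP alone and of neither, for 8p, 8q and all other chromosomes (horizontal axis). Bins associated in both lines make up 54.1% of 8p and 12.7% of 8q.

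A domain was counted wherever associated bins followed each other without a break. The 14 LNCaP domains of 8p covered 34.3 Mb and had a median of 1080 kb, with an interquartile range of 540 to 4770 kb. The 22 VCaP domains of 8p covered 26.8 Mb at a median of 580 kb (380 to 1300 kb). On 8q the 19 LNCaP domains covered 19.2 Mb at a median of 680 kb (500 to 940 kb), and the 45 VCaP domains covered 40.7 Mb at a median of 560 kb (320 to 1160 kb). The LNCaP domains of 8p were thus fewer and longer than those of VCaP, and on 8q LNCaP had fewer domains of a similar median length.

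The longest LNCaP domain of 8p began at the first usable bin and ran from 80001 to 7160000, averaging 0.59 in LNCaP and 0.57 in VCaP. It overlapped the longest VCaP domain of 8p, from 600001 to 6320000, which was associated in LNCaP throughout. The second LNCaP domain, from 24480001 to 30280000, averaged 0.34 in LNCaP and 0.17 in VCaP, and 37.2% of its bins were associated in VCaP. The third, from 30600001 to 35560000, averaged 0.78 in LNCaP and 0.48 in VCaP. In VCaP the second longest domain of 8p, from 31080001 to 35000000, lay inside that stretch, and the next, from 19880001 to 23440000, had a mean of 0.62. Each of these VCaP domains was associated in LNCaP in 100% of its bins.

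The long domains of 8q were shared between the lines to varying degrees. The longest of LNCaP, from 136960001 to 140840000, averaged 0.30 in LNCaP and 0.61 in VCaP and lay wholly inside associated VCaP bins, within the longest VCaP domain (136720001 to 141720000). The second LNCaP domain, from 111800001 to 115280000, averaged 0.43 in LNCaP and -0.03 in VCaP, and 0 of its bins were associated in VCaP. The third ran from 50160001 to 51560000, with means of 0.31 and 0.26. In VCaP the second longest domain, from 142040001 to 145360000, had a mean of 1.08, against 0.09 in LNCaP. The next, from 55080001 to 57880000, had a mean of 0.47 in VCaP and -0.06 in LNCaP.

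Level shifts were sought by fitting segments of constant level, each at least 2 Mb long, and keeping steps of at least 0.25 between segment medians. LNCaP had 9 shifts on 8p and 23 on 8q, which is 20.7 and 23.2 per 100 Mb, against 18.2 on the other chromosomes together. VCaP had 9 on 8p and 13 on 8q, or 20.7 and 13.1 per 100 Mb, against 20.4 elsewhere. These rates lay inside the range of the 40 other arms, which reached from 6.38 to 28.9 in LNCaP and from 0 to 32.2 in VCaP. With steps of at least 0.4 the counts were 6 on 8p and 10 on 8q in LNCaP, and 8 on 8p and 2 on 8q in VCaP. The VCaP rate of 8p at that setting, 18.4 per 100 Mb, was level with the highest of the other arms (18.4). Within 400 kb and in the same direction, 2 of the 9 LNCaP shifts of 8p and 3 of the 23 of 8q had a VCaP counterpart. The same count was not made on the other chromosomes, so whether these are few is not known. The positions of shifts follow the averaging of the deposited values and the shortest length allowed, 50 bins, which 4 of the 10 LNCaP segments of 8p and 4 of the 24 of 8q had.

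No step as large as the gap between the arms lay at the centromere. In LNCaP the last 50 bins of 8p, 2 Mb in all, had a median of 0.05 and the first 50 bins of 8q had a median of -0.05. In VCaP the medians on the 2 sides were 0.45 and 0.49. The LNCaP level left its high plateau at 35440001, before the end of 8p, and the first fitted segment of 8q, 3 Mb long, had a median of -0.23.

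**Figure D4:**
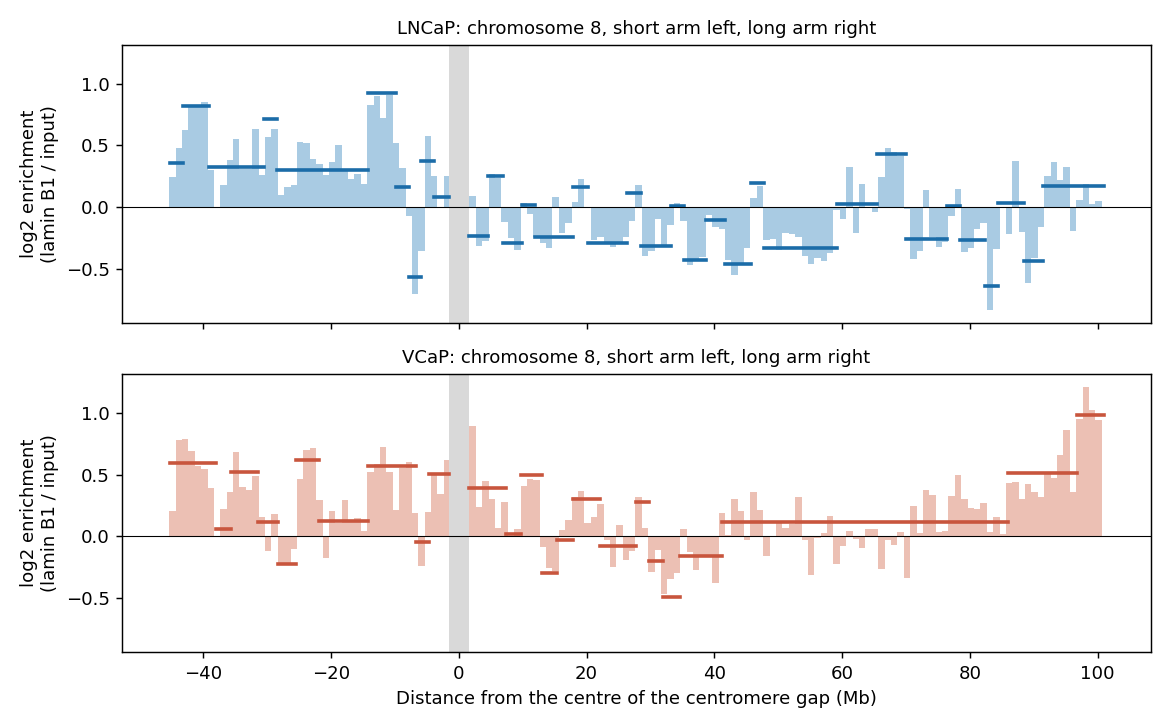
Log2 enrichment of lamin B1 over input (vertical axis) in 1 Mb windows (bars) against distance from the centre of the centromere gap (horizontal axis, Mb) in LNCaP (upper) and VCaP (lower). Horizontal lines are the fitted segments at their medians, and grey marks the stretch between the arm limits. LNCaP runs above 0 over most of 8p and below 0 over most of 8q, and VCaP is highest at the end of 8q, at 0.98.

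Along 8p, the LNCaP segment medians stayed above 0 from the chromosome end to 37480000. Its median was 0.35 up to 2080000, 0.82 from there to 6160000, and 0.32 up to 14880000. It was 0.71 from 14880001 to 16880000 and 0.30 from 16880001 to 31200000. The highest segment of 8p, at 0.92, ran from 31200001 to 35440000, and 100% of its bins were associated. These segments form a plateau on which 2 stretches, near the chromosome end and beside the later drop, began with steps of 0.46 and 0.62.

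The LNCaP level then fell in 2 steps. It fell by 0.76, to 0.16, at 35440001 and by 0.73, to -0.57, at 37480001. The segment from 37480001 to 39480000, fitted on LNCaP, was the lowest of 8p. Of its bins, 0% were associated in LNCaP, against 58.0% in VCaP. The fit placed the next rise, of 0.94 to 0.38, at 39480001, which is the shortest allowed distance after the previous shift. Single bins had already risen before it, from -0.88 at 38920001 to between 0.15 and 0.32 from 39040001 to 39240000. From 41480001 to the end of the arm the level was 0.09. No VCaP shift lay at either drop, and the VCaP segment from 31120001 to 38640000 had a median of 0.57. That segment was not flat near the first drop. Its 1 Mb windows starting at 34000001, 35000001 and 36000001 had VCaP means of 0.52, 0.21 and 0.56.

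In VCaP 5 segments of 8p had medians over 0.5, namely 0.59 (80001 to 7280000), 0.52 (9680001 to 13880000), 0.62 (19880001 to 23440000), 0.57 (31120001 to 38640000) and 0.51 (40680001 to 43800000). The other 5 lay between these, 2 of them adjoining, at 0.06 (7280001 to 9680000), 0.11 (13880001 to 17080000), -0.22 (17080001 to 19880000), 0.13 (23440001 to 31120000) and -0.04 (38640001 to 40680000). The largest step, 0.84, was at 19880001. In these 5 lower segments, which were fitted on VCaP, the associated shares in VCaP were 29.6%, 20.0%, 0%, 28.6% and 17.6%, in the order given. The LNCaP shares were 55.6%, 72.5%, 47.1%, 92.2% and 27.5%.

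On 8q LNCaP lay near -0.3 with short rises. Up to 104560000, the segments below -0.2 were those from 46920001 to 49920000 (-0.23), 52320001 to 55160000 (-0.29), 57280001 to 63200000 (-0.24), 65520001 to 71640000 (-0.29), 73920001 to 78640000 (-0.31), 80640001 to 84120000 (-0.43), 87080001 to 91080000 (-0.46) and 93080001 to 104560000 (-0.33). The rises between them reached 0.25 (49920001 to 52320000), 0.02 (55160001 to 57280000), 0.16 (63200001 to 65520000), 0.11 (71640001 to 73920000), 0.01 (78640001 to 80640000), -0.11 (84120001 to 87080000) and 0.19 (91080001 to 93080000). The longest low segment, 11.5 Mb from 93080001 to 104560000 and fitted on LNCaP, held 0% associated bins in LNCaP and 25.1% in VCaP.

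The highest LNCaP segment of 8q followed. The level rose to 0.03 at 104560001 and to 0.43 at 110760001. In that last segment, fitted on LNCaP and ending at 115400000, 92.2% of bins were associated in LNCaP, against 6.03% in VCaP. The level fell by 0.69 at 115400001, to -0.26, the largest step of 8q in LNCaP. Further on it was 0.01 from 121760001 to 123760000, -0.26 to 127760000, and -0.64 from 127760001 to 129760000, the lowest segment of either arm. It was 0.03 from 129760001 to 133760000, -0.44 from 133760001 to 136880000, and 0.17 from 136880001 to the end of the arm.

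Of the 13 VCaP shifts of 8q with steps of at least 0.25, 11 lay at or before 86560001. With steps of at least 0.4 none of those was kept, although 3 of them measured more than 0.4 at the smaller setting. These were 0.48 at 55080001, -0.80 at 58400001 and -0.48 at 75160001. Joining neighbours, smallest step first, with medians taken anew, merged all bins from 46920001 to 131400000 into 1 segment at 0.09. The 2 shifts left lay at 131400001 and 142080001. At the smaller step the segments had medians of 0.39 (46920001 to 52720000), 0.02 (52720001 to 55080000), 0.50 (55080001 to 58400000), -0.30 (58400001 to 60760000), -0.03 (60760001 to 63160000), 0.30 (63160001 to 67520000), -0.07 (67520001 to 73080000) and 0.28 (73080001 to 75160000). The step of 0.80 at 58400001, downwards, was the largest. The level then reached its minimum, -0.20 from 75160001 to 77240000 and -0.49 from 77240001 to 79920000, and was -0.16 from 79920001 to 86560000. A single segment of 44.7 Mb, from 86560001 to 131400000, followed at 0.12. It was not flat, since its 44 whole windows of 1 Mb ran from -0.34, at 115000001, to 0.50, at 123000001.

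By fitted segments and by 1 Mb windows of at least 20 bins, the end of 8q was the highest part of chromosome 8 in VCaP. The level rose to 0.52 at 131400001 and to 0.98 at 142080001. In the last segment, 4.12 Mb to 146320000 and fitted on VCaP, 98.1% of bins were associated in VCaP and 33.0% in LNCaP. The LNCaP median of the same bins was 0.10, and the longer LNCaP segment that covers them, from 136880001, had a median of 0.17. Without the bins from 131400001 on, the 8q minus 8p difference was -0.30 in VCaP and -0.59 in LNCaP, an alternative chosen after seeing the data.

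As deposited, the VCaP minus LNCaP difference had no clear direction on 8p, where 4 windows of 5 Mb were above 0 and 5 below. On 8q 17 windows were above 0 and 3 below. The median VCaP minus LNCaP difference was -0.08 on 8p (SD over 9 windows of 5 Mb, 0.21) and 0.29 on 8q (SD over 20 windows, 0.27), against 0.10 over all bins. After the genome median of each line was subtracted, the differences were -0.21 and 0.15, so both signs stayed. The 8q minus 8p contrast of this difference, 0.37, was the largest in size of the 18 chromosomes, but chromosome 19 had nearly the same value (0.37).

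A difference of more than 0.5 log2 was taken as past the fold used. On 8q 773 bins (31.2%) were higher in VCaP by that measure, against 21.3% of all bins, and 111 (4.48%) were higher in LNCaP, against 9.33% of all bins. On 8p 106 bins (9.75%) were higher in VCaP and 129 (11.9%) were higher in LNCaP. Of the bins past the threshold, 45.1% on 8p and 87.4% on 8q were thus higher in VCaP, against 69.5% of all such bins. Centring each line on its genome median changed this split to 20.4% on 8p and 71.2% on 8q, against 48.6% of all such bins, with 61 and 238 bins on 8p and 513 and 207 on 8q (VCaP first). The lead of LNCaP on 8p thus widened with centring, and that of VCaP on 8q narrowed.

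**Figure D5:**
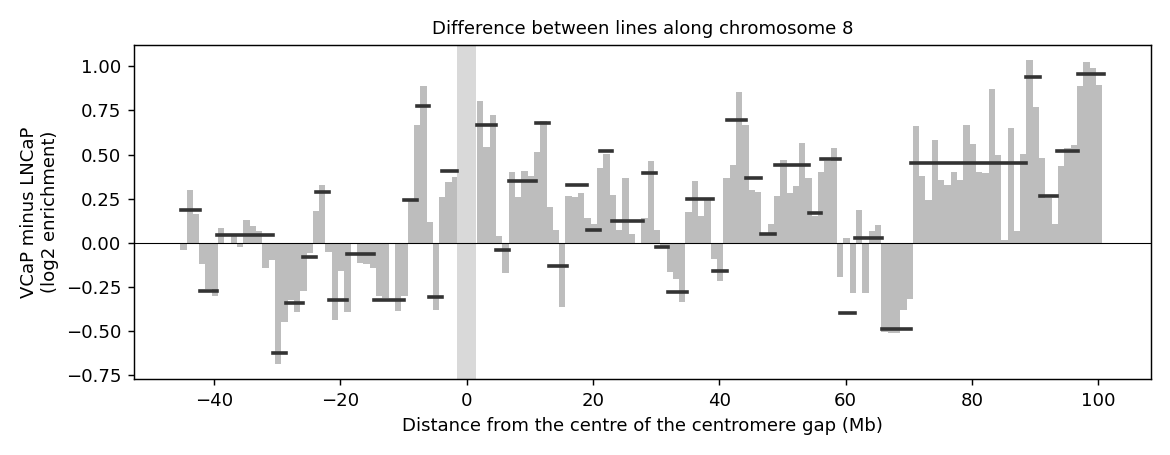
VCaP minus LNCaP difference of log2 enrichment (vertical axis) in 1 Mb windows (bars) against distance from the centre of the centromere gap (horizontal axis, Mb). Horizontal lines are the fitted segments at their medians, and grey marks the stretch between the arm limits. Most of 8q lies above 0, with segments up to 0.95 at its end, and the stretch at -0.49 is the main exception.

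The difference itself had 13 level shifts on 8p and 27 on 8q, or 29.9 and 27.2 per 100 Mb, above the highest of the 40 other arms (25.9). With steps of at least 0.4 the counts were 6 and 8, or 13.8 and 8.07 per 100 Mb, inside the range of the other arms (0 to 18.7). On 8p the segments lay at 0.19 up to 3120000, -0.28 to 5880000, 0.05 to 14760000, -0.62 to 16760000, -0.34 to 19480000, -0.08 to 21480000 and 0.29 to 23480000. They went on at -0.33 to 26400000, -0.06 to 30680000, -0.33 to 35440000, 0.24 to 37440000, 0.77 to 39440000, -0.31 to 41440000 and 0.41 to the end of the arm. LNCaP was thus the higher line over much of 8p from 14760001 to 35440000, and VCaP was higher over much of what follows.

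On 8q the difference was below 0 in 7 of 28 segments. The longest stretch in favour of VCaP was the segment from 115760001 to 133920000, 18.2 Mb at a median of 0.45. The highest segments were the last, from 142080001 to 146320000 (0.95), and that from 133920001 to 136120000 (0.94). The lowest ran from 111080001 to 115760000 (-0.49) and was followed by the largest step of 8q, 0.94. It held 84.6% associated bins in LNCaP and 0% in VCaP, a contrast that its choice by the difference favours. The remaining segments of the difference on 8q lay between -0.40 and 0.70.

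Windows of 1 Mb show the extremes. On 8p VCaP exceeded LNCaP most in the windows starting at 38000001 (LNCaP -0.70 ± 0.22, VCaP 0.19 ± 0.40, SD over 25 bins), 37000001 (difference 0.67) and 43000001 (0.37). LNCaP exceeded VCaP most in those starting at 15000001 (LNCaP 0.57 ± 0.35, VCaP -0.12 ± 0.45, SD over 25 bins), 16000001 (difference -0.45) and 24000001 (-0.44). The highest LNCaP window of 8p, at 34000001, had a mean of 0.91, and the highest VCaP window, at 2000001, had 0.78. The lowest VCaP window of 8p, at 39000001, had -0.24. All 25 bins of the 34000001 window were associated in both lines.

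On 8q the difference was largest in the windows starting at 134000001 (LNCaP -0.62 ± 0.15, VCaP 0.42 ± 0.30, SD over 25 bins), 143000001 (LNCaP 0.19 ± 0.13, VCaP 1.21 ± 0.25) and 144000001 (difference 0.99). It was lowest in the 3 adjoining windows from 111000001 to 114000000, at -0.51 in each. The LNCaP mean was highest in the one starting at 112000001 (0.48) and lowest in the window starting at 128000001 (-0.83), where VCaP had 0.04. The lowest VCaP window, at 77000001, had -0.47, and LNCaP had -0.30 there. Among the 1 Mb windows of 8q, VCaP was the higher line in 82 of 99, and on 8p in 16 of 43.

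The lowest bins of LNCaP formed a narrow trough in 8p, singled out after its values were seen. In the 13 bins from 39080001 to 39600000 the deposited LNCaP value went from 0.32 at 39200001 to -0.82, -2.38, -3.49, -2.69 and -1.22 in the next 5 bins and back to -0.15. VCaP in those 5 bins had 0.03, 0.00030, 0.08, -0.20 and -0.51. With the averaging undone, the low values among these 13 bins were 4: -3.10, -4.22, -3.14 and -0.71, starting at 39240001, and the bins on either side were at 0.16 and 0.18. Only 13 of the 71436 bins had a lower LNCaP value than the lowest of these, and 0.651% were under -1. Without the 5 bins the 8q minus 8p difference of medians was -0.56 in LNCaP.

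The lowest LNCaP bins of 8q lay from 128040001 to 128240000, with a mean of -1.34 over 5 bins. There VCaP was also low, with a mean of -0.60. This dip was shallower than that of 8p, with a lowest bin of -1.57, and it had a VCaP counterpart, which the 8p trough did not have. At the other end of the scale, 29 bins of 8p and 0 of 8q exceeded 1 in LNCaP, against 0.34% of all bins. In VCaP 37 bins of 8p and 72 of 8q did (3.40% and 2.90%), against 3.52% of all bins. The longest such run was of 15 bins on 8q, from 143160001 to 143760000, with a VCaP mean of 1.36 and a LNCaP mean of 0.27. The highest VCaP bin of 8p, 1.80, exceeded that of 8q, 1.68. It lay in a run of 4 bins from 7920001 to 8080000, with a VCaP mean of 1.63 and a LNCaP mean of 0.16.

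Finer patterns were partly shared by the lines. Between the lines, Pearson's r was 0.41 (Spearman's rho 0.49) over the 1087 bins of 8p and 0.36 (rho 0.38) over the 2479 bins of 8q. Over the 67866 bins of the other chromosomes r was 0.27 (rho 0.29). After subtraction of each 1 Mb window's mean, r was 0.33 on 8p and 0.45 on 8q, and 0.47 elsewhere. For means of 1 Mb windows, r was 0.49 (rho 0.52) over 43 windows of 8p and 0.29 (rho 0.27) over 99 windows of 8q. Elsewhere it was 0.15 (rho 0.15). Leaving out the 5 bins of the LNCaP trough, r over single bins of 8p was 0.43 (rho 0.49). These are descriptions across bins that share library, depth, base composition and averaging, and bins are not independent replicates.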

How the data were processed

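Enrichment tables and state tables of LNCaP and VCaP were analysed, 1 of each per line. The deposited values are log2 enrichment of lamin B1 ChIP over input, as the file names and the series' design text say, and the state tables hold the AD and iAD labels of a hidden Markov model. The submitters' processing notes name hg19 and STAR without a role; the scaling of ChIP to input, filters and versions are not given in the sources used here. AD, which had the higher median in LNCaP and in VCaP, is called the associated state.

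The deposited values are averaged along the genome. In entries wider than 40 kb the median absolute value was 0.21 in LNCaP and 0.33 in VCaP, and it was 0.0088 and 0.011 after a trailing mean of 3 entries was undone. The averaging carries signal up to 2 entries downstream and makes neighbouring bins dependent. Depth is unknown, which limits precision to the spread between bins.

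Arms of other chromosomes were split at the widest gap of the table. Level shifts came from a least-squares fit of constant segments of at least 50 bins, whose neighbours were joined, smallest step first, until every step was at least 0.25. The fit and the undone mean were tested on simulated data. For the fit, the planted steps were of at least 0.4, between flat segments longer than the shortest allowed. Smaller steps and drifting levels were not simulated for it. Regions named are every level shift of each line (those of the difference on 8q by their extremes), the 3 longest domains, and the extreme 1 Mb windows per arm. Members, lists and tests were chosen with earlier results of these data known. Alternatives covered bin selection, scaling, state definition and segment settings. Planned gene names were not used, since no hg19 annotation was at hand. Computations were done in Python 3.11.15 (pandas 2.3.3, numpy 2.4.6; matplotlib 3.10.9 for plots, scipy 1.17.1 for intervals).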

Additional observations from a re-analysis of the deposited data

How the results depend on the processing

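Alternatives gave 207 values for 45 results, and 150 stayed within the spread of a single bin, the 95% binomial interval of a share, 1.5 times a count or 0.1 of a correlation. The spread of a single bin is a wide limit for the median of an arm. Within it, centring took the VCaP median of 8p from 0.39 to 0.19. The median difference between the lines went from -0.08 to -0.21 on 8p and from 0.29 to 0.15 on 8q. The 8q minus 8p difference kept its sign in both lines under every alternative run, and dividing by the interquartile range set it at -1.16 in LNCaP, in units of that range. Centring on the genome medians turned the VCaP median of 8q to -0.037. No paired analysis was possible because the 4 groups hold 1 library each, and depth, which is unknown, limits single bins.

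The definition of the associated state moved shares most. With enrichment over 0, 87.6% of 8p and 33.5% of 8q were associated in LNCaP, against 57.2% of bins on the other chromosomes. In VCaP it was 78.9% and 63.6%, against 66.8%, so 8q lay slightly under that background. With a running median over 0 the shares of 8p and 8q were 88.6% and 33.1% in LNCaP and 79.7% and 63.8% in VCaP. No background share was taken for that definition. With the highest 40% of bins of each line they were 74.6% and 22.4% in LNCaP and 56.7% and 35.8% in VCaP. There the background is 40% by construction. Without 5 Mb at each arm end the VCaP shares were 58.2% and 36.6%. With enrichment over 0, 81.4% of LNCaP-associated bins of 8p were associated in VCaP, against 78.9% of all 8p bins. On 8q it was 77.1%, against 63.6%. Of the VCaP-associated bins, 90.3% on 8p and 40.7% on 8q were associated in LNCaP, against 87.6% and 33.5% of all bins. With the highest 40% of bins, 57.1% of LNCaP bins of 8q were shared, against 35.8% of all 8q bins in VCaP. Of the VCaP bins of 8q, 35.7% were shared, against 22.4% of all 8q bins in LNCaP.

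Segment settings moved the count of shifts by construction. With segments of at least 1 Mb the counts were 18 and 41 in LNCaP (8p, 8q), 16 and 37 in VCaP, and 22 and 57 for the difference, whose largest steps were then 1.56 and 1.23, with 0.88 for LNCaP on 8q. With at least 4 Mb they were 5 and 7 in LNCaP, 6 in VCaP on 8q, and 5 and 8 for the difference, with largest steps of 0.74 for the difference on 8p and 0.55 for VCaP on 8q. With steps of at least 0.4 they were 10 for LNCaP and 2 for VCaP on 8q, and 6 and 8 for the difference, with largest steps of 0.76 for LNCaP on 8p and 0.47 for VCaP on 8q. Undoing the mean set the largest LNCaP step of 8p at 0.78; the cause was not tested.

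A difference over 1 left 22 of the 1087 bins of 8p and 116 of the 2479 of 8q higher in VCaP. It left 10 and 2 higher in LNCaP. The share of all bins past that limit was not taken, so whether these counts are high or low is not known. Centring gave 61 (5.61%) on 8p and 513 (20.7%) on 8q higher in VCaP, against 14.8% of all bins. It gave 238 (21.9%) and 207 (8.35%) higher in LNCaP, against 15.6% of all bins. Quantile normalization gave 55 (5.06%) on 8p and 610 (24.6%) on 8q higher in VCaP, against 14.8% of all bins. It gave 268 (24.7%) and 173 (6.98%) higher in LNCaP, against 14.6% of all bins. Spearman rho on 8q was 0.27 for means of 1 Mb.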
